A study of Rattus norvegicus with 4 samples.

Results

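The RNA of the D cyclins, of their kinase partners Cdk4 and Cdk6, and of the inhibitors of these kinases was followed in neonatal rat cardiomyocyte cultures that received mimics of the clustered miRNAs miR-25, miR-93 or miR-106b or of the control miRNA cel-miR-67. The 10 genes were chosen by symbol (Ccnd1, Ccnd2, Ccnd3, Cdk4, Cdk6, Cdkn1b, Cdkn1c, Cdkn2b, Cdkn2c and Cdkn2d). Of these, 9 have a row among the 15731 genes of the deposited values, and Cdkn2d, which has none under that symbol, was not analysed here. Relative to the control library, Ccnd1 and Ccnd2 RNA was lower after miR-106b and miR-93 and higher after miR-25. The inhibitor Cdkn1c was 3.42-fold higher after miR-106b and 6.57-fold higher after miR-93, and the kinase Cdk4 stayed between 97.2 and 99.6 RPKM, as deposited, in all 4 libraries. The summed RNA of the D cyclins was 5.86 times that of the listed inhibitors in the control library, 3.13 times after miR-106b, 2.7 times after miR-93 and 9.33 times after miR-25. With the inhibitors Cdkn1a and Cdkn2a also counted, the ratio after miR-25 was no longer apart from the control, at 4.21 against 4.19.

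Cells were ventricular cardiomyocytes of wild type Wistar rats on postnatal day 1, in primary culture, and the 4 groups shared strain, age, medium and transfection reagent and differed in the mimic. The mimics were those of the human miRNAs hsa-miR-25-3p, hsa-miR-93-5p and hsa-miR-106b-5p, and the control was cel-miR-67, a worm miRNA. Their concentration is given as 25 nM in 1 protocol and as 25 mM in another, and RNA was harvested 72 h after transfection. Pre-plating, which removes cells that attach fast, had left cultures of mostly cardiomyocytes, so other cell types remained. Each mimic gave 1 library, so no difference below has a replicate check, and a difference between mimics cannot be told apart from a difference between culture dishes.

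D cyclins are made when growth signals reach a cell, and they bind and switch on Cdk4 and Cdk6. The active kinases phosphorylate the retinoblastoma protein, which then releases E2F factors and lets the cell pass from G1 into S phase. INK4 proteins (p15 from Cdkn2b, p18 from Cdkn2c, p19 from Cdkn2d) bind Cdk4 and Cdk6 and keep the D cyclins off, whereas KIP proteins (p27 from Cdkn1b, p57 from Cdkn1c) bind whole cyclin and kinase complexes and chiefly block Cdk2. In the heart, D cyclins decline and CDK inhibitors accumulate as cardiomyocytes leave the cell cycle after birth.

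The mimics are shown here because the miRNAs after which Ccnd1 and Ccnd2 were lower share a seed, the stretch of bases 2 to 8 that pairs with target RNAs. The sequences are the rat mature forms from RefSeq (GRCr8, minus strand), with the seed in capitals. The rat forms stand in for the human mimics used, whose own sequences were not used here, and the cel-miR-67 sequence is not shown.
miR-106b-5p (chr12:22157103-22157123): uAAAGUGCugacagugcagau
miR-93-5p (chr12:22156894-22156916): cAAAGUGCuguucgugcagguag
miR-25-3p (chr12:22156652-22156673): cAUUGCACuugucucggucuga
miR-106b-5p and miR-93-5p carry the same seed and the same base at 16 of the 21 positions counted from the 5′ end, while the seed of miR-25-3p differs. Matches to these seeds in the transcripts of the members were not looked for, because no transcript sequence was used here.

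Values are RPKM, read counts scaled to gene length and library size, so levels of different genes can be set side by side as far as the lengths hold. These lengths were recovered with the reads, at 6866 bases for Ccnd1, 1414 for Ccnd2, 5897 for Cdkn2b and 1432 for Cdkn2c. In the control library Ccnd1 and Ccnd2 had 2901 and 3159 reads, so ranks, shares and balances across genes depend on the lengths. The whole reads behind the RPKM values were recovered and numbered from 15175185 to 18797234 on listed genes per library. The library sizes by which the values were scaled are larger than these sums and are not whole numbers, so they may hold a normalization factor that the sources used here do not state. Scaled to the reads on listed genes instead, every log2 fold change over the control is higher by 0.083 for miR-106b, 0.146 for miR-93 and 0.148 for miR-25, whereas ratios within a library stay as they are. Genes above 1.0 RPKM in both libraries of a comparison, called tested genes here although 1 library a group allows no statistical test, were held against the 1.3-fold cutoff of the study. All 9 listed members passed this filter in all 4 libraries. Brackets give the 95% exact (Clopper-Pearson) interval of a log2 fold change from the reads, which holds counting error alone. With miR-106b, 2 of the 9 members were past the cutoff upwards and 2 downwards, while 11.9% and 12.7% of all 11296 tested genes were. With miR-93 the counts were 1 up and 3 down, against 15.1% and 15.6% of 11280 genes. With miR-25, 3 members were up and 2 down, against 19.3% and 22.6% of 11198 genes. The median log2 fold change of the members was -0.02 after miR-106b, 0.02 after miR-93 and -0.01 after miR-25, and that of all tested genes -0.003, -0.002 and -0.01. Members moved in both directions around a median near 0.

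In the control library the members spanned levels from 1.5 RPKM for Cdkn1c to 98.5 RPKM for Ccnd2. Ccnd2 and Cdk4, at 98.5 and 98.3 RPKM, did not differ beyond counting error. Ccnd3 followed at 45.0 RPKM. Ccnd1 at 18.6 and Cdkn1b at 16.8 RPKM came next, and their intervals (18.0 to 19.3 and 15.6 to 18.1) touch. Below them lay Cdk6 at 8.23, Cdkn2c at 5.45, Cdkn2b at 3.88 and Cdkn1c at 1.5 RPKM, each apart from the next beyond counting error. In reads Cdkn2b stood above Cdkn2c, at 519 against 177, so their order rests on the gene lengths used. The RPKM order of the members was not kept with the mimics. Ccnd1 dropped from rank 4 of the 9 to rank 7 after miR-106b and rank 8 after miR-93, and Cdkn1c moved from the last rank to rank 5 after miR-93.

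**Figure D1:**
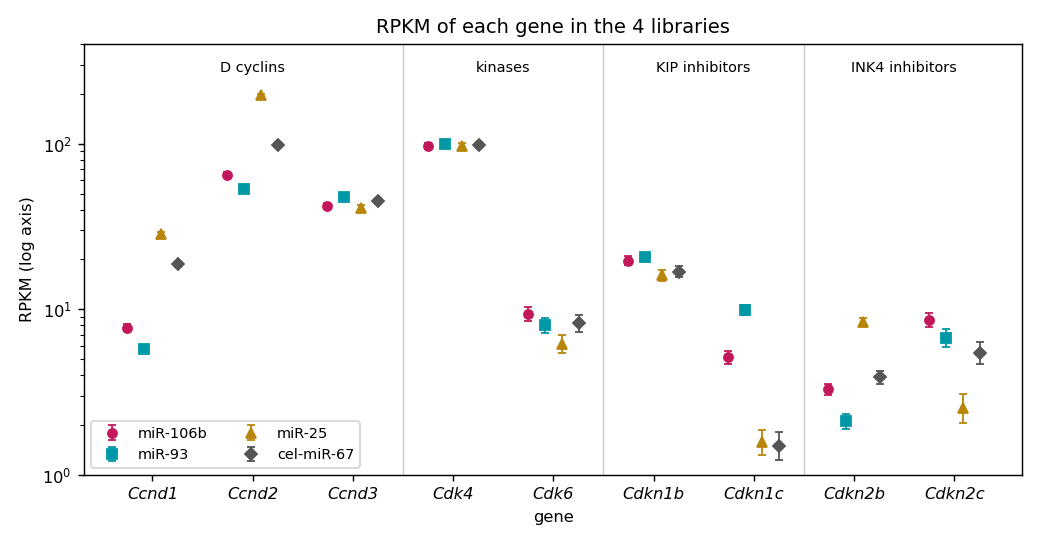
RPKM (log axis) of the 9 listed genes in the 4 libraries, 1 point per library with its 95% exact Poisson interval for counting error. Ccnd1, Ccnd2 and Cdkn2b are highest after miR-25, Cdkn1c after miR-93, and the 4 points of Cdk4 lie between 97.2 and 99.6.

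Ccnd1 encodes cyclin D1, the D cyclin most closely tied to growth factor signals. Its RPKM was 18.6 in the control library, 7.74 after miR-106b, 5.76 after miR-93 and 28.4 after miR-25, from 2901, 1581, 1081 and 5308 reads. Both libraries with the shared seed lay below the control and the miR-25 library above it. The log2 fold change against the control was -1.27 (-1.36 to -1.18) for miR-106b, -1.69 (-1.79 to -1.59) for miR-93 and 0.61 (0.54 to 0.67) for miR-25. Among all tested genes, 0.540% had a lower value than Ccnd1 after miR-106b and 0.647% after miR-93, whereas 89.998% had a lower value after miR-25. Its highest level was 4.92 times its lowest, a spread wider than in 98.8% of the 10984 genes above 1.0 RPKM in all libraries. The median gene had a highest level 1.44 times its lowest.

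Ccnd2, the gene of cyclin D2, was the most abundant D cyclin in every library. Its RPKM was 98.5 in the control library, 65.1 after miR-106b, 53.2 after miR-93 and 196 after miR-25. The order of the libraries was that of Ccnd1, after miR-93 lowest and miR-25 highest. The log2 fold change was -0.60 (-0.67 to -0.52), -0.89 (-0.97 to -0.81) and 0.99 (0.93 to 1.05) for miR-106b, for miR-93 and for miR-25. In RPKM, Ccnd2 fell by 33.4 after miR-106b, fell by 45.3 after miR-93 and rose by 97.6 after miR-25. These differences made up most of the difference in the summed D cyclins, which was -47.3, -55.8 and 103 RPKM. The fold change of Ccnd1 was larger than that of Ccnd2 after miR-106b and after miR-93 and smaller after miR-25, and the intervals of the 2 genes do not overlap with any mimic.

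Ccnd3, the gene of cyclin D3, behaved unlike the other D cyclins. Its RPKM was 45.0 in the control library, 42.0 after miR-106b, 47.3 after miR-93 and 41.0 after miR-25. No mimic moved it past 1.3-fold, and its log2 fold change was -0.10 (-0.19 to -0.01) for miR-106b, 0.07 (-0.01 to 0.16) for miR-93 and -0.13 (-0.22 to -0.05) for miR-25. Its highest level was 1.16 times its lowest, and 9.61% of genes had a smaller spread. The makeup of the D cyclin RNA shifted accordingly. Ccnd3 held 27.7% of the summed D cyclin RPKM in the control library, 36.5% after miR-106b, 44.5% after miR-93 and 15.4% after miR-25. The share of Ccnd1 was 11.5% in the control library, 6.74% after miR-106b, 5.42% after miR-93 and 10.7% after miR-25. Ccnd2 held 60.8%, 56.7%, 50.1% and 73.9% in the same order of libraries.

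Cdk4, the main kinase partner of the D cyclins, was at 98.3 RPKM in the control library, 97.2 after miR-106b, 99.6 after miR-93 and 97.4 after miR-25. The intervals of its log2 fold change include 0 with each mimic, at -0.10 to 0.07, -0.07 to 0.10 and -0.10 to 0.07. Of the genes above 1.0 RPKM in all libraries, 0.0728% had a smaller spread between their highest and lowest level. This steadiness belongs to the deposited scaling, since scaling to the reads on listed genes gives 0.16 (0.08 to 0.25) for miR-93 and 0.14 (0.05 to 0.22) for miR-25, within 1.3-fold and off 0. In the RefSeq table (GRCr8) Cdk4 overlaps the end of its neighbour Tspan31, and whether reads were counted by strand is not given in the sources used here.

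Cdk6, the related kinase, was the scarcer of the pair, with an RPKM of 8.23 in the control library, 9.41 after miR-106b, 7.98 after miR-93 and 6.18 after miR-25. It was lowest after miR-25, where the log2 fold change of -0.41 (-0.66 to -0.16) passed the cutoff by a small margin. The call is lost with a pseudocount of 1 RPKM, at -0.36, with scaling to the reads on listed genes, at -0.26, and with a 1.5-fold cutoff. The other log2 fold changes were 0.19 (-0.03 to 0.42) for miR-106b and -0.04 (-0.28 to 0.19) for miR-93. As deposited, neither was a detectable difference at this depth, from 279 to 419 reads. Scaled to the reads on listed genes, the value for miR-106b is 0.28 (0.06 to 0.50), within 1.3-fold and off 0. Cdk4 stood at 12.0 times Cdk6 in the control library, and at 10.3 times after miR-106b, 12.5 times after miR-93 and 15.8 times after miR-25. The summed kinases stayed between 104 and 108 RPKM, so that the D cyclins amounted to 1.52 times the kinases in the control library, 1.08 times after miR-106b, 0.988 times after miR-93 and 2.56 times after miR-25.

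**Figure D2:**
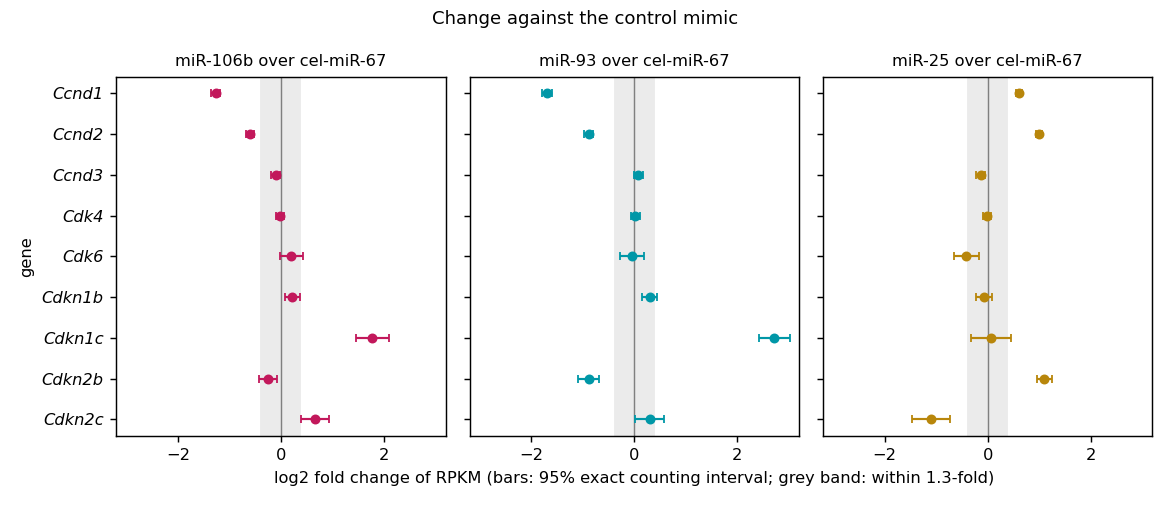
Log2 fold change of RPKM of the 9 listed genes with each mimic over cel-miR-67, 1 library each, with the 95% exact counting interval and a grey band for changes within 1.3-fold. Ccnd1 and Ccnd2 lie left of the band after miR-106b and miR-93 and right of it after miR-25. Cdkn1c lies far right after miR-106b and miR-93, at 1.77 and 2.72.

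Cdkn1b, the gene of p27, was the most abundant listed inhibitor in all 4 libraries. Its RPKM was 16.8 in the control library, 19.6 after miR-106b, 20.7 after miR-93 and 16.0 after miR-25. The log2 fold change was 0.22 (0.08 to 0.37) for miR-106b, 0.30 (0.16 to 0.44) for miR-93 and -0.07 (-0.22 to 0.08) for miR-25, all within 1.3-fold. The first 2 intervals lie above 0, and the last includes it. Scaled to the reads on listed genes, the value for miR-93 is 0.44 and passes the cutoff. The protein p27 is known to be controlled mainly by its destruction, which RNA levels do not show.

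Cdkn1c, the gene of p57, had the widest spread of the members. Its RPKM was 1.5 in the control library, 5.13 after miR-106b, 9.86 after miR-93 and 1.57 after miR-25, from 105, 471, 831 and 132 reads. The miR-25 and control libraries were alike in level, and both libraries with the shared seed stood above them. The log2 fold change was 1.77 (1.47 to 2.09) after miR-106b and 2.72 (2.42 to 3.02) after miR-93. With miR-25 it was 0.06 (-0.32 to 0.45), and no difference was detectable at this depth. Among tested genes, 99.9% had a lower fold change after miR-106b and 99.97% after miR-93. The transcript lay below 2.0 RPKM in the control library, so it is not tested under the stricter RPKM cutoff of 2.0 stated in the methods, which ends both calls. With a pseudocount of 1 RPKM the log2 fold changes were smaller, at 1.29 for miR-106b and 2.12 for miR-93. Its share of the summed inhibitors rose from 5.43% in the control library to 14% after miR-106b and 25.1% after miR-93, and was 5.52% after miR-25.

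Cdkn2b, the gene of p15, had its libraries in the same order as Ccnd1 and Ccnd2. Its RPKM was 3.88 in the control library, 3.28 after miR-106b, 2.10 after miR-93 and 8.34 after miR-25. The miR-93 library was lowest and the miR-25 library highest. The log2 fold change was -0.24 (-0.42 to -0.07) for miR-106b, within 1.3-fold, -0.88 (-1.08 to -0.68) for miR-93 and 1.10 (0.96 to 1.25) for miR-25. Cdkn2a, the neighbouring gene that encodes the INK4 protein p16 and the unrelated protein ARF, is no member but stands in the list of G1 genes used below. It was scarce, at 1.42 RPKM in the control library, 1.35 after miR-106b, 0.891 after miR-93 and 3.10 after miR-25, from 45, 56, 34 and 118 reads. With miR-25 its log2 fold change was 1.13 (0.62 to 1.65), while the interval after miR-106b includes 0 and the gene is below the RPKM cutoff after miR-93.

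Cdkn2c, the gene of p18, had another order, with the miR-106b library highest. Its RPKM was 5.45 in the control library, 8.61 after miR-106b, 6.70 after miR-93 and 2.54 after miR-25. The miR-25 library was lowest, and the other mimics lay above the control. The log2 fold change was 0.66 (0.40 to 0.93) for miR-106b, 0.30 (0.02 to 0.58) for miR-93, within 1.3-fold, and -1.10 (-1.47 to -0.74) for miR-25. Scaled to the reads on listed genes, the value for miR-93 is 0.44 and passes the cutoff. The 2 INK4 genes thus moved in opposite directions after miR-25, and their sum was 10.9 RPKM there against 9.33 in the control library. Genes of dividing cells lay beside this pattern. The summed RPKM of 6 proliferation genes (Mki67, Top2a, Ccnb1, Cdk1, Pcna and Mcm2) was 159 in the control library, 268 after miR-106b, 215 after miR-93 and 79.8 after miR-25, and their part in the Cdkn2c values was not tested.

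The balance of the D cyclins to the inhibitors was taken as the ratio of their summed RPKM in each library. The D cyclins summed to 162 RPKM in the control library, 115 after miR-106b, 106.3 after miR-93 and 265 after miR-25. The 4 listed inhibitors summed to 27.6 RPKM in the control library, 36.7 after miR-106b, 39.3 after miR-93 and 28.5 after miR-25. In both libraries with the shared seed the numerator was lower and the denominator higher than in the control library. After miR-25 the D cyclins were higher and the inhibitors nearly level. The ratio was 5.86 (counting interval 5.51 to 6.24) in the control library, 3.13 (2.98 to 3.29) after miR-106b, 2.7 (2.57 to 2.84) after miR-93 and 9.33 (8.87 to 9.81) after miR-25. On the log2 scale it changed by -0.91 (-1.02 to -0.79) after miR-106b, -1.12 (-1.23 to -1.0) after miR-93 and 0.67 (0.55 to 0.79) after miR-25. After miR-106b the D cyclin sum changed by -0.50 and the inhibitor sum by 0.41 on the log2 scale. After miR-93 these changes were -0.61 and 0.51.

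**Figure D3:**
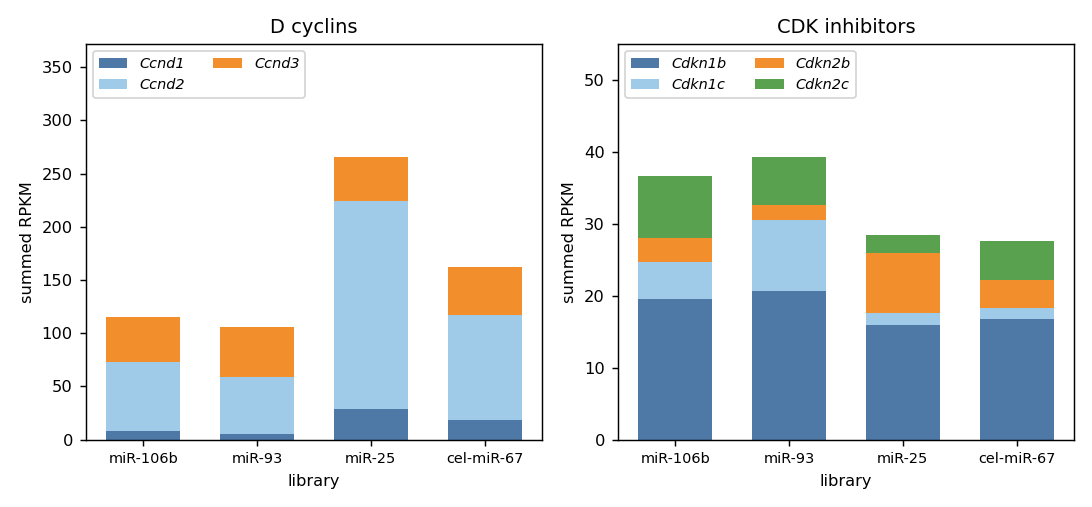
Summed RPKM of the 3 D cyclins and of the 4 listed CDK inhibitors in each library, stacked by gene, 1 library per mimic. The D cyclin bar reaches 265 after miR-25, mostly Ccnd2, and the inhibitor bars are tallest after miR-106b and miR-93, at 36.7 and 39.3.

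The higher balance after miR-25 depended on which inhibitors were counted. Cdkn1a, the gene of p21, a KIP inhibitor outside the 10 genes, was at 9.61 RPKM in the control library, 9.90 after miR-106b, 7.02 after miR-93 and 31.5 after miR-25. With Cdkn1a and Cdkn2a added to the inhibitors, the ratio was 4.21 after miR-25 and 4.19 with the control mimic, a log2 change of 0.007. It stayed below the control with the other mimics, at 2.40 after miR-106b and 2.25 after miR-93. Without Ccnd2, the change after miR-25 was 0.08, and it was -0.76 after miR-106b and -0.77 after miR-93. The balance after miR-106b and after miR-93 was below the control for each gene set tried, while that after miR-25 lay near the control without Ccnd2 or with Cdkn1a and Cdkn2a added.

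**Figure D4:**
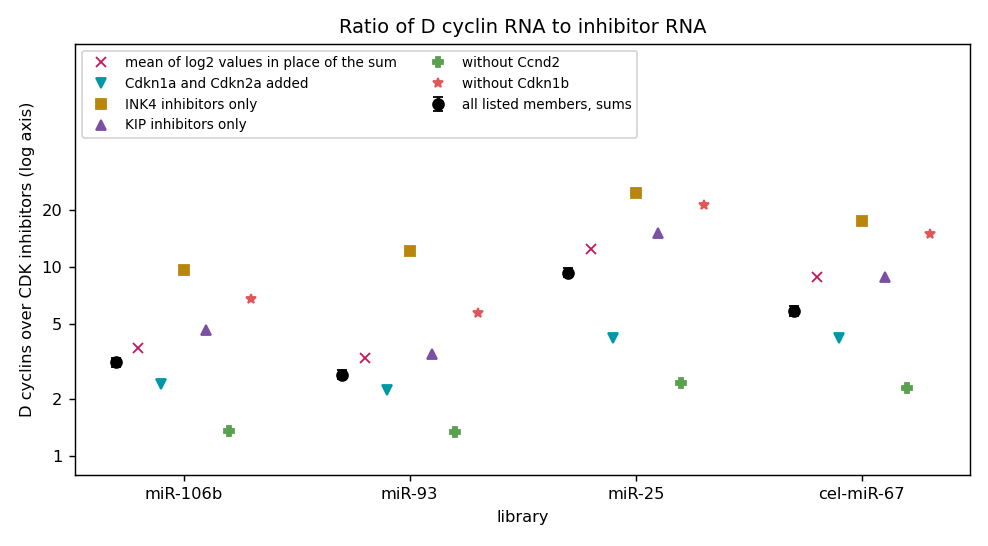
Ratio of D cyclin RPKM to CDK inhibitor RPKM (log axis) in each library, for the listed members (black, with the counting interval) and for 6 other choices of genes or averaging. The miR-106b and miR-93 libraries lie below the control for every choice. With Cdkn1a and Cdkn2a added, the miR-25 and control libraries lie at 4.21 and 4.19.

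Comparing the mimics with each other leaves the control library out. Between miR-93 and miR-106b, which share the seed, Cdkn1c was past 1.3-fold upwards and Ccnd1 and Cdkn2b downwards, while 7.30% and 8.21% of 11391 tested genes were. Cdkn1c was higher after miR-93 by 0.94 on the log2 scale (0.78 to 1.11). Ccnd1 was at -0.43 (-0.54 to -0.31) and Cdkn2b at -0.64 (-0.84 to -0.44), both lower after miR-93. Scaling to the reads on listed genes adds 0.146 to miR-93 values and 0.083 to miR-106b values. The call of Ccnd1 is then lost. Ccnd2, at -0.29 (-0.37 to -0.21), and Cdkn2c, at -0.36 (-0.60 to -0.13), lay within the cutoff with intervals below 0. The balance was lower after miR-93 than after miR-106b by a log2 difference of -0.21 (-0.32 to -0.11), but over the INK4 inhibitors alone it was higher, at 12.1 against 9.65, and without Ccnd2 the balances were alike, at 1.35 and 1.36. The members that differed most from the control with both mimics, Ccnd1 and Cdkn1c, were thus further from it after miR-93.

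Between miR-25 and miR-106b, 3 members were past the cutoff upwards and 3 downwards, beside 22.1% and 23.0% of 11183 tested genes. Ccnd1 was higher after miR-25 by 1.87 (1.79 to 1.96), Ccnd2 by 1.59 (1.53 to 1.66) and Cdkn2b by 1.35 (1.2 to 1.49). Cdk6 was at -0.61 (-0.84 to -0.38), Cdkn1c at -1.71 (-2.0 to -1.43) and Cdkn2c at -1.76 (-2.10 to -1.44), all lower after miR-25. Between miR-25 and miR-93, the same 3 genes were up and Cdkn1c and Cdkn2c down, beside 22.1% and 23.0% of 11198 genes. The differences were 2.30 for Ccnd1, 1.88 for Ccnd2, 1.99 for Cdkn2b, -2.65 for Cdkn1c and -1.40 for Cdkn2c. As deposited, Cdk4 differed between no pair of mimics beyond counting error. The balance was 2.98 times as high after miR-25 as after miR-106b and 3.45 times as high as after miR-93. These ratios were 1.76 and 1.87 with Cdkn1a and Cdkn2a added, and 1.80 and 1.81 without Ccnd2.

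**Figure D5:**
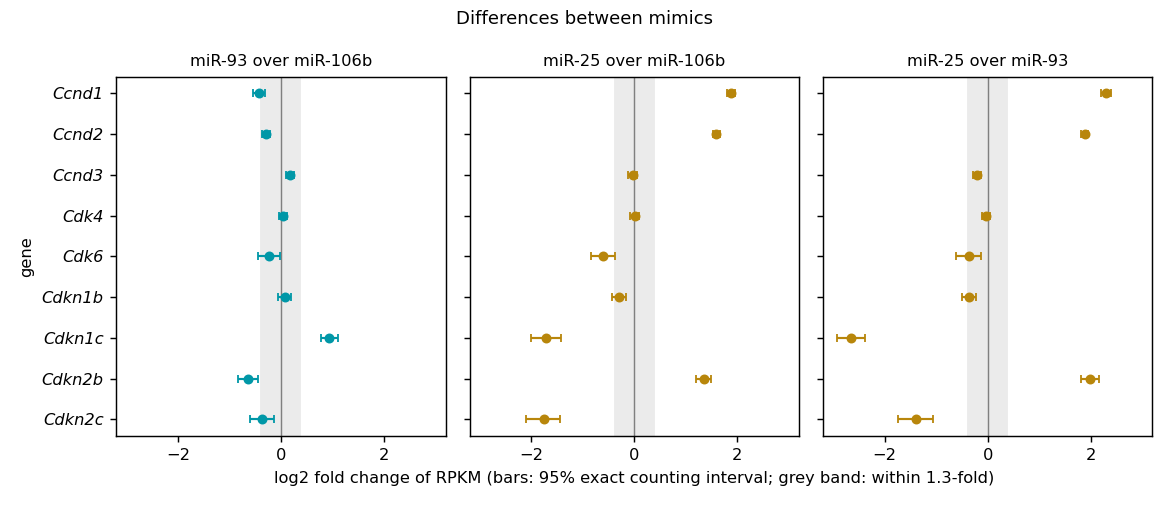
Log2 fold change of RPKM of the 9 listed genes between pairs of mimics, 1 library each, with the 95% exact counting interval and a grey band for changes within 1.3-fold. Ccnd1, Ccnd2 and Cdkn2b lie far right in both comparisons of miR-25, and Cdkn1c and Cdkn2c far left, at -1.71 and -1.76 against miR-106b.

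Other genes of the G1 step were counted in fixed lists. Of all tested genes, 11.9% were up and 12.7% down after miR-106b, and 15.1% and 15.6% after miR-93. After miR-25 these shares were 19.3% and 22.6%. In a list of 18 G1 partners (pocket proteins, E2F and DP factors, cyclins E and A2, Cdk2, Cdc25a, Cdkn1a and Cdkn2a), 1 was up and 3 down of 17 tested after miR-106b, 2 up and 4 down of 16 after miR-93, and 4 up and 5 down of 17 after miR-25. The median log2 fold change over the list was -0.07, -0.04 and -0.03. As deposited, the 3 genes down after miR-106b were down with every mimic, and are named with the other observations. Ccna2, the gene of cyclin A2, which acts in S phase after the D cyclins, was at 10.8 RPKM in the control library, 14.3 after miR-106b, 14.3 after miR-93 and 4.55 after miR-25. Of 5 genes that activate or fold Cdk4 and Cdk6 (Cdk7, Ccnh, Mnat1, Cdc37 and Hsp90ab1), none was past the cutoff after miR-106b or miR-93 and 1 was down after miR-25. Among 13 genes for the turnover of D cyclins and p27, the counts were 2 up and 2 down after miR-106b, 0 and 2 after miR-93, and 1 and 2 after miR-25. Rbx1, a subunit of the ubiquitin ligases that mark p27 for destruction, had a log2 fold change of -0.46 (-0.64 to -0.28) after miR-25, from 76.1 to 55.3 RPKM. Scaling to the reads on listed genes adds 0.148 to this value and brings it within 1.3-fold. After miR-106b Rbx1 was past the cutoff upwards, at 0.46 (0.31 to 0.61) and 104 RPKM. After miR-93 it was at -0.08 (-0.25 to 0.08). Among 9 transcription factors upstream of the members, 1 was up and 2 down of 8 tested after miR-106b, 1 and 2 of 8 after miR-93, and 1 and 1 of 7 after miR-25.

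The cultures also held RNA of other cell types, whose levels moved with the mimics. Marker counts stand beside the shares of all tested genes, 11.9% up and 12.7% down after miR-106b. These shares were 15.1% and 15.6% after miR-93, and 19.3% and 22.6% after miR-25. Marker counts and shares are for the deposited scaling. All 8 cardiomyocyte markers were listed, and their summed RPKM was 12848 in the control library, 12937 after miR-106b, 10623 after miR-93 and 6931 after miR-25, with 8 of 8 down after miR-25. Log2 fold changes of these 8 markers after miR-25 ran from -0.42 for Pln to -4.47 for Tnni3. Scaling to the reads on listed genes adds 0.148 to them, and Pln and Tnnt2 then lie within 1.3-fold. As deposited, counts of the cardiomyocyte markers after miR-106b were 1 up and 2 down, and after miR-93 1 up and 3 down. The 8 fibroblast markers summed to 832, 651, 756 and 323 RPKM in the same order of libraries, with 4, 3 and 7 down and none up. The 6 smooth muscle and pericyte markers summed to 294, 288, 217 and 774 RPKM, with 5 up and 1 down after miR-25, 1 up and 2 down after miR-106b, and 0 up and 3 down of 5 tested after miR-93. Endothelial markers were scarce, at 4.01 to 4.97 RPKM over 5 genes, of which 2 were tested (Pecam1 was not analysed here), with 1 up and 1 down after miR-106b, 1 up and 0 down after miR-93, and 1 up and 1 down after miR-25. Macrophage markers summed to 6.75 to 16.1 RPKM over 6 genes, with 1, 2 and 0 up and 0, 0 and 4 down. Of the 6 proliferation genes, 5 were up after miR-106b, 3 were up after miR-93 and 5 were down after miR-25. In such bulk RNA, fewer cells of a type and less RNA per cell cannot be told apart. The sums also rest on few genes. Acta2 and Cnn1, at 440 and 278 RPKM, made up most of the smooth muscle sum after miR-25. Myl2, at 6838 RPKM, was the largest part of the cardiomyocyte sum in the control library. The smooth muscle sum was highest, and the cardiomyocyte and fibroblast sums lowest, in the library where Ccnd1, Ccnd2 and Cdkn2b were highest, and the part of these cell types in the members' values was not tested.

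For members past 1.3-fold with at least 2 mimics, the genes with the most similar pattern were found by the distance between their 3 log2 fold changes, among 9250 genes above 2.0 RPKM in all libraries. Only 4 libraries enter, so a small distance is a description. Closest to Ccnd2 was Scd1, at a distance of 0.15, followed by AABR07008066.2 and Cttnbp2nl. The nearest to Ccnd1 were Abcg1, Ccdc107 and Plekha3, at 0.30 to 0.37. Cdkn2b had Ppp1r36, Mtmr11 and Nacad, at 0.02 to 0.23. For Cdkn2c the nearest were Kif20a, Kif22 and Depdc1, at 0.08 to 0.13. The nearest to Cdkn1c, Doc2g, Myl7 and Ccnb1, lay further off, at 0.76 to 0.97. Cdkn1c itself was below 2.0 RPKM in the control and miR-25 libraries, so genes as scarce as it were not searched. Few genes changed as much, so these distances do not show that its pattern is unusual.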

How the data were processed

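The data were RNA-seq of 4 libraries, 1 for each mimic. As the methods and labels state, the authors mapped the reads to Rnor_6.0 with STAR 2.7 after adaptor removal, rounded the gene counts and deposited RPKM values computed with edgeR; the counting program is not given in the sources used here. Sample files and series table were identical for all 4 libraries.

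The whole reads behind the RPKM steps were recovered for 15731 genes (rebuilt values differed by at most 9.07e-14 of the value), including 654 genes whose reads shared a common factor. On simulated data the reads came out exact for 96.2% to 96.4% of genes in the 3 simulated comparisons with the control, so a few percent of genes may carry a wrong read number and interval width. They gave the exact binomial intervals of fold changes. Counting intervals of the ratio of sums used the normal approximation on the log scale. With 1 library per group no test was run and depth sets counting error only; replicate spread is unknown. Ratios have no pseudocount.

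The members and gene lists were chosen with earlier results of these data known. Named genes outside the members are those of the G1 lists past the cutoff with miR-106b and miR-93, or with miR-25, above 10 RPKM, and the 3 nearest patterns per member; Cdkn1a and Cdkn2a belong to a set alternative of the balance. Alternatives were other cutoffs, pseudocounts, scalings and gene sets. Scaling to the reads on listed genes, and the gene sets for the balance between mimics, were added after seeing the data. Symbols listed more than once (176) were left out of the lists. Scripts ran under Python 3.11.15 with pandas 2.3.3, scipy 1.17.1, numpy 2.4.6 and, for plots, matplotlib 3.10.9.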

Additional observations from a re-analysis of the deposited data

How the results depend on the processing

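No paired analysis was possible because each mimic has 1 library. Of 135 alternative values of the fold changes over the control, 119 stayed within the counting interval of the reported value and 16 moved. Of the latter, 6 moved with a pseudocount of 1 RPKM and 10 with scaling to the reads on listed genes, an alternative chosen after seeing the data. With a pseudocount of 0.1 RPKM, median centring or the trimmed mean, all 27 values stayed. No change past the cutoff could reverse. Pseudocounts keep the sign of a change, and the rescalings shifted log2 values by at most 0.148, less than the cutoff of 0.379. Scaling to the reads on listed genes left 3 members up after miR-93, with Cdkn1b and Cdkn2c added, and 1 down after miR-25, without Cdk6. Centring on the median gene shifted log2 values by at most 0.01 and scaling by the trimmed mean of M values by at most 0.003, and since the deposited values may already hold such a factor, these small shifts are no test of the scaling. An RPKM cutoff of 2.0 left 1 member up with miR-106b and 0 with miR-93, since Cdkn1c was then not tested. A fold-change cutoff of 1.5 left 1 member down with miR-25, as did a pseudocount of 1 RPKM. A fold-change cutoff of 2 left 1 up and 1 down with miR-106b, 1 up and 1 down with miR-93, and 1 up and 1 down with miR-25. The shares of all genes past these other settings were not counted, so these member counts have no background beside them.

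The ratio of D cyclins to inhibitors, in the order miR-106b, miR-93, miR-25 and control, was 3.74, 3.29, 12.4 and 8.83 with means of log2 values, 2.40, 2.25, 4.21 and 4.19 with Cdkn1a and Cdkn2a added, 9.65, 12.1, 24.4 and 17.4 over the INK4 inhibitors, 4.63, 3.48, 15.1 and 8.85 over the KIP inhibitors, 1.36, 1.35, 2.44 and 2.30 without Ccnd2, and 6.74, 5.69, 21.3 and 14.96 without Cdkn1b. Its log2 change with miR-106b was -1.24 with means of log2 values, -0.76 without Ccnd2 and -1.15 without Cdkn1b. With miR-93 it was -1.42 with means, -0.90 with the 2 genes added, -0.52 over the INK4 and -1.35 over the KIP inhibitors, -0.77 without Ccnd2 and -1.39 without Cdkn1b. With miR-25 it was 0.49 with means, 0.00685 with the 2 genes added, 0.49 over the INK4 inhibitors, 0.0826 without Ccnd2 and 0.51 without Cdkn1b.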

Other observations

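Genes next to the members in the RefSeq table (GRCr8) did not all follow them. Kcnq1, which encodes a potassium channel and lies beside Cdkn1c, was at 9.15 RPKM in the control library, 7.10 after miR-106b, 7.46 after miR-93 and 4.91 after miR-25, so it was lower than the control in all 3 libraries, including the 2 where Cdkn1c was higher. Parp11, which lies beside Ccnd2, was at 1.49, 2.28, 2.48 and 3.07 RPKM in the same order, higher than the control also where Ccnd2 was lower. These neighbours were looked up after the values of the members were seen.

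Some genes of the G1 lists, named after their values were seen, moved past the cutoff although they do not pass the level set for naming. Rb1, the gene of the retinoblastoma protein on which the D cyclin kinases act, had a log2 fold change of 0.94 (0.73 to 1.15) with miR-25, and intervals that include 0 with miR-106b and miR-93. As deposited, E2f1, Ccne2 and Rbl1 were past the cutoff downwards with every mimic. In the order miR-106b, miR-93 and miR-25, E2f1 was at -0.85, -0.57 and -1.40. In the same order Ccne2 was at -0.54, -0.66 and -0.92, and Rbl1 at -0.59, -0.47 and -0.51. Scaling to the reads on listed genes adds 0.146 with miR-93 and 0.148 with miR-25, and Rbl1 then lies within 1.3-fold with both. Fbxo4, which encodes an F-box protein, was at 4.67 RPKM in the control library, 2.06 after miR-106b, 2.90 after miR-93 and 5.39 after miR-25. Ccnh, the gene of cyclin H, the partner of Cdk7, was at -1.17 (-1.35 to -0.98) with miR-25, from 21.6 to 9.64 RPKM.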
